A study of Mus musculus with 6 samples.

Results

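The genes examined were the subunits of oxidative phosphorylation, the 5 protein complexes of the mitochondrial inner membrane that carry electrons to oxygen and make ATP. Protein-coding genes of the mouse annotation whose symbols begin with Ndufa, Ndufb, Ndufc, Ndufs, Ndufv, Sdha to Sdhd, Uqcr, Cox4i, Cox5, Cox6, Cox7, Cox8, Atp5, mt-Nd, mt-Co, mt-Cytb or mt-Atp were taken, and the assembly factors named Ndufaf were left out. The rule named 99 genes, of which 96 were among the 15663 genes listed, 83 in the nuclear and 13 in the mitochondrial genome. Cox7b2, Cox8c and a second gene named Atp5o were not listed. The rule reads symbols only, so complex III cytochrome c1 (Cyc1) was counted elsewhere, and Ndufa4 and Ndufa4l2 were counted with complex IV.

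RNA was sequenced from the RPE-choroid, the retinal pigment epithelium (RPE) with the vascular choroid under it, of 3 control and 3 subretinal fibrosis (SRF) mice, 1 library a mouse. All were C57BL/6 mice by the labels, and the study's methods give them as C57BL/6J males of 8 to 10 weeks. SRF mice received 4 laser burns in each eye and a second burn on each lesion 10 days later, and RNA was taken 20 days after the second laser. Controls were untreated, so that laser injury and its later scar were compared together with intact tissue.

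Complex I (NADH dehydrogenase) and complex II (succinate dehydrogenase) pass electrons to ubiquinone, complex III passes them on to cytochrome c and complex IV (cytochrome c oxidase) to oxygen. The protons pumped by complexes I, III and IV drive complex V, the ATP synthase. A core of subunits is encoded by the compact, circular mitochondrial DNA and transcribed from it as long precursors, whereas all others are imported from the cytosol, and the RPE is known as a cell layer that depends strongly on mitochondrial respiration.

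Counts on listed genes summed to between 13667310 and 24356023 a library, and all 96 subunit genes were among the 13454 tested, those above 50 counts in 2 or more libraries. CPM, counts scaled to a common library total after TMM normalization, was used to compare libraries, and FPKM, which also divides by transcript length, to compare genes. Expression was compared with edgeR's quasi-likelihood test, and genes were called where the Benjamini-Hochberg adjusted p-value was under 0.05 and the log2 fold change 0.5 or more in size. The summed CPM of 26 photoreceptor markers ranged from 2837 to 19010 in control and from 2079 to 18710 in SRF libraries, control mouse 1 and SRF mouse 3 being the high ones. Fewer cells of a type and less RNA per cell cannot be told apart in such bulk tissue.

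Among the 13 mitochondrially encoded subunits, 10 were lower in SRF and 3 higher, with a median log2 fold change of -0.27 beside 0.00 over all tested genes. By edgeR's quasi-likelihood test 6 were lower at an unadjusted p-value under 0.05, which 2.85% of all tested genes were, and 1 was higher, against 4.16%. The 3 control and 3 SRF libraries did not overlap for 7 lower genes and 1 higher gene, against 6.43% and 6.71% of all tested genes. None of the 13 was called after Benjamini-Hochberg adjustment by edgeR's quasi-likelihood test, which called 0% of all genes, or by DESeq2, which called 1.14%. DESeq2 gave 2 of the 13 an adjusted p-value under 0.05 at a smaller fold, as it did for 1.26% of all tested genes. GC content lay between 31.9% and 41.1% in the annotated transcripts of these 13 genes. With a correction for it, the median was -0.14 and 3 had an unadjusted p-value under 0.05. Without SRF mouse 2 the number was 4. Of all tested genes, 6.808% had such a p-value with the GC correction and 3.315% without SRF mouse 2.

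The lowest log2 fold change was that of mt-Nd1 (chrM:2751-3707), a membrane subunit at the ubiquinone end of complex I. Its level was 4474, 3912 and 4131 CPM in control mice 1 to 3 and 3233, 2851 and 2846 CPM in SRF mice 1 to 3. Every SRF library lay below every control library. The log2 fold change was -0.49 ± 0.11 (SE, n = 3 mice a group), with an adjusted p of 0.340 by edgeR's quasi-likelihood test (Benjamini-Hochberg) and of 0.00258 in DESeq2. Its unadjusted p-value was under 0.05 in each of the 22 alternative settings.

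Cytochrome b, the only subunit of complex III in the mitochondrial DNA, was the highest subunit mRNA per length, at 8064 ± 1100 FPKM (SD, n = 6). mt-Cytb counts were 10930, 10500 and 10080 CPM in control and 8498, 7348 and 8260 CPM in SRF mice. The groups again did not overlap, with a log2 fold change of -0.39 ± 0.10 (SE), an adjusted p of 0.414 by edgeR's quasi-likelihood test (Benjamini-Hochberg) and one of 0.0266 in DESeq2.

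The 3 mitochondrial subunits of complex IV, which form its catalytic core, showed the same order of groups. mt-Co1, which carries the site of oxygen reduction, was at 8720, 7992 and 7695 CPM in control and 6897, 6253 and 5978 CPM in SRF mice, a log2 fold change of -0.35 ± 0.11 (SE). mt-Co3 was at 4045, 4289 and 3902 against 3612, 3160 and 2882 CPM, a log2 fold change of -0.34 ± 0.12. mt-Co2, which receives electrons from cytochrome c, was at 1743, 1778 and 1710 against 1656, 1394 and 1299 CPM. Its log2 fold change of -0.27 ± 0.12 had an unadjusted p-value of 0.0684 by edgeR's quasi-likelihood test, so mt-Co2 was the only gene of the 7 without overlap that missed 0.05.

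mt-Atp6, the membrane subunit of complex V along which protons pass, was at 6003, 5701 and 5749 CPM in control and 4974, 4126 and 4744 CPM in SRF mice. Its log2 fold change was -0.33 ± 0.11 (SE). mt-Nd4, a proton-pumping subunit of complex I, was at 1878, 1733 and 1610 against 1525, 1281 and 1220 CPM, a log2 fold change of -0.37 ± 0.13. Neither gene's groups overlapped. The other large complex I subunits did overlap, mt-Nd2 with a log2 fold change of -0.21 ± 0.15 and mt-Nd5 with one of -0.06 ± 0.17. The fitted value of mt-Nd5 was above 0 without SRF mouse 3, without control mouse 1, without both and with the GC correction.

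**Figure D1:**
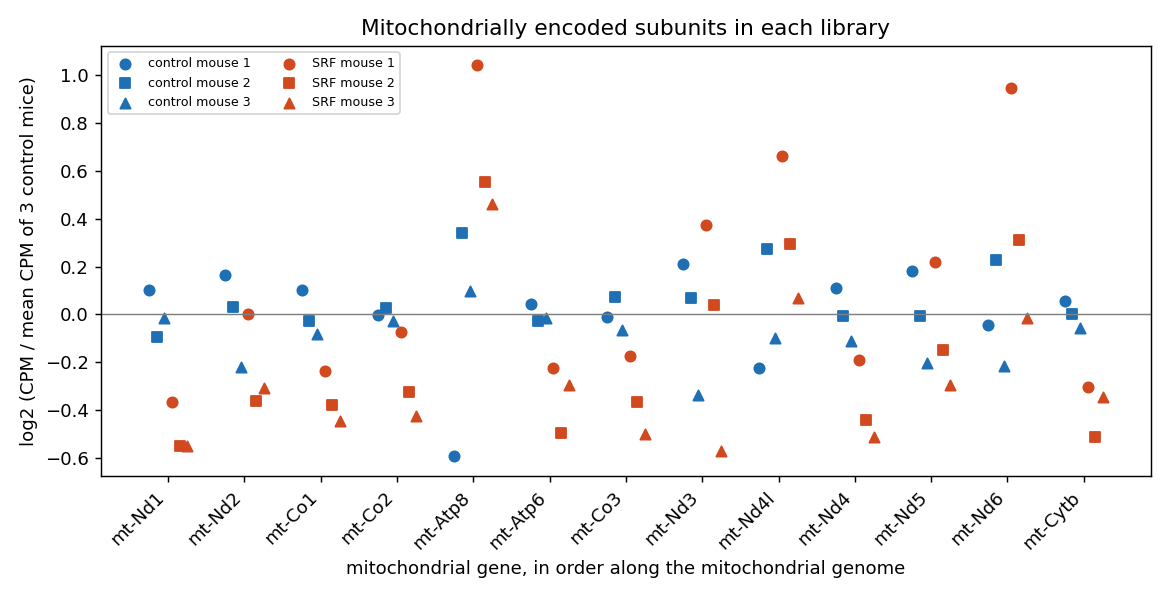
Level of each mitochondrially encoded subunit in each library, as log2 of its CPM over the mean CPM of the 3 control mice (y axis), in order along the mitochondrial genome (x axis). Blue marks are control and orange marks SRF mice, with 1 shape for each mouse number. The SRF marks lie below all control marks for mt-Nd1, mt-Co1, mt-Co2, mt-Atp6, mt-Co3, mt-Nd4 and mt-Cytb and above them for mt-Atp8.

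As a share of all counts, the 13 genes made up 3.87%, 3.65% and 3.56% in control and 3.26%, 2.84% and 2.87% in SRF mice. The means were 3.70% ± 0.161 and 2.99% ± 0.232 (SD, n = 3), a difference with p = 0.1 in a two-sided exact permutation test, the smallest p-value that 3 against 3 libraries allow. The 83 nuclear genes made up 1.71%, 1.88% and 1.60% in control and 1.92%, 1.70% and 1.44% in SRF mice (p = 0.9, exact permutation test). The ratio of mitochondrial to nuclear subunit counts was 2.27, 1.94 and 2.22 in control and 1.70, 1.67 and 1.998 in SRF mice. It overlapped between the groups at control mouse 2 and SRF mouse 3 (p = 0.2, exact permutation test). Adjusted over these 3 tests, the exact permutation p-values were 0.3 for the mitochondrial share, 0.9 for the nuclear share and 0.3 for the ratio.

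Most RPE markers were lower beside the lower mitochondrial share. Of 16 RPE markers, 12 were lower in SRF and 6 of them had an unadjusted p-value under 0.05 by edgeR's quasi-likelihood test, which called 0 of them, while DESeq2 called 4. Their summed level was between 49540 and 57420 CPM in control and between 34720 and 43710 CPM in SRF libraries. Much of this sum was Rgr, at 25330 ± 1548 CPM in control and 15690 ± 1791 CPM in SRF mice (SD, n = 3). The 4 higher markers were Best1, Pmel, Tyrp1 and Cdh3, with log2 fold changes from 0.06 to 0.32. Of 14 macrophage markers, 13 were higher and 10 had an unadjusted p-value under 0.05, with summed levels from 1623 to 2065 CPM in control and from 3793 to 5473 CPM in SRF libraries. edgeR's test called 0 and DESeq2 called 7 of the macrophage markers. All of these markers were detected in every library, and the part of the RPE or of macrophages in the mitochondrial result was not tested.

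The 4 mitochondrial genes with the shortest annotated transcripts had the 4 highest log2 fold changes of the 13. An annotated transcript need not be a separate mRNA in the cell. mt-Atp8, a small membrane subunit of complex V, was at 45.5, 87.0 and 73.5 CPM in control and 141, 101 and 94.7 CPM in SRF mice. All SRF libraries were above all control libraries, control mouse 1 being the lowest. Its log2 fold change was 0.71 ± 0.27 (SE), with an unadjusted p-value of 0.0320 and an adjusted one of 0.622 by edgeR's quasi-likelihood test (Benjamini-Hochberg). Without control mouse 1 the fitted value was 0.48.

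mt-Nd4l, a small complex I subunit, was at 49.0, 69.1 and 53.4 CPM in control and 90.5, 70.2 and 59.9 CPM in SRF mice, overlapping only where SRF mouse 3 lay below control mouse 2. Its log2 fold change was 0.36 ± 0.20 (SE). mt-Nd6, the only one of the 13 encoded on the other, minus strand, was at 81.5, 98.4 and 72.4 against 162, 104 and 83.2 CPM, a log2 fold change of 0.47 ± 0.26. The value of SRF mouse 1 stood above the others, and leaving out that mouse brought mt-Nd6 to 0.16. mt-Nd3, a further complex I subunit, averaged 47.4 CPM in both groups, and its fitted value lay between -0.23 and 0.34 over the alternatives.

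mt-Atp8 and mt-Nd4l lie on the same strand as, and run into, mt-Atp6 and mt-Nd4, both lower in SRF by the fitted values. Their junctions are shown because reads there can belong to either gene of a pair. Capitals mark the bases shared by both genes, 43 in the first pair and 7 in the second, with 12 bases on either side, from the GENCODE M21 transcripts of GRCm38.
mt-Atp8 and mt-Atp6, chrM:7915-7981 (plus strand): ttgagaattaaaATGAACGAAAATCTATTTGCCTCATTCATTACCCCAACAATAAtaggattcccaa
mt-Nd4l and mt-Nd4, chrM:10155-10185 (plus strand): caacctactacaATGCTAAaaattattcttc
In each pair the capitals begin with the ATG of the downstream gene. mt-Atp8 spans 204 bases (chrM:7766-7969) and mt-Atp6 681 (chrM:7927-8607), and mt-Nd4l spans 297 (chrM:9877-10173) and mt-Nd4 1378 (chrM:10167-11544). mt-Nd6 overlaps the end of mt-Nd5 on the opposite strand, and the sources used here do not say whether counting used the strand. How reads were assigned in such overlaps was not given either.

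**Figure D2:**
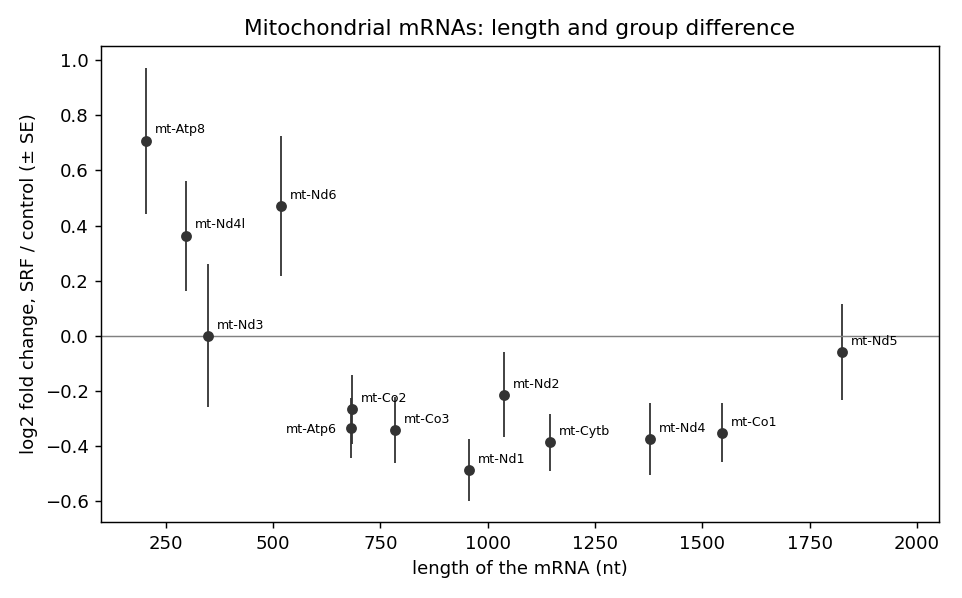
Fitted log2 fold change of SRF over control with its SE (y axis) against annotated transcript length (x axis) for the 13 mitochondrially encoded subunits. Each point is 1 gene. The axis names this length that of the mRNA, but an annotated transcript need not be a separate mRNA. mt-Atp8, mt-Nd4l, mt-Nd3 and mt-Nd6, of 204, 297, 348 and 519 nt, lie highest, and the 9 others, from 681 to 1824 nt, lie at or below -0.06.

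Among the 83 nuclear subunits, 64 were lower and 19 higher in SRF, against 49.7% of all tested genes with a log2 fold change below 0. The median was -0.08, with fitted values from -0.30 to 0.58 and a median SE of 0.18, so that most differences were smaller than their error. By edgeR's quasi-likelihood test 2 were lower and 0 higher at an unadjusted p-value under 0.05, beside 2.85% and 4.16% of all tested genes. After Benjamini-Hochberg adjustment 0 were called by edgeR, beside 0%, and 0 by DESeq2, beside 1.14%. The groups did not overlap for 3 genes, all lower, beside 6.43% of all tested genes lower and 6.71% higher, so these counts do not exceed the background. Without control mouse 2 or SRF mouse 2, 0 nuclear genes had an unadjusted p-value under 0.05, and without SRF mouse 3 there were 5, of which 2 were lower and 3 higher. Of all tested genes, 4.155%, 3.315% and 12.75% had such a p-value in those fits, in that order. Without SRF mouse 3 the number lower was 36 of 83 and the median turned to 0.03, and without it and control mouse 1, the libraries highest in photoreceptor markers, the number was again 36 and the median 0.04.

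The nuclear subunits went up and down together from library to library, not by group. The median deviation from each gene's own mean was 0.07, 0.20 and -0.11 on the log2 scale in control mice 1 to 3 and 0.21, -0.02 and -0.36 in SRF mice 1 to 3. In control mouse 2, 77 of the 83 genes were above their own mean, in SRF mouse 1 73, and in SRF mouse 3 only 7. The median over all tested genes stayed between -0.018 and 0.025 in each library. The mitochondrial subunits had medians of 0.22, 0.15 and 0.08 in control and 0.06, -0.19 and -0.25 in SRF mice.

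Skeletal muscle markers were detected in all libraries, highest in SRF mouse 1 and lowest in SRF mouse 3, as the nuclear subunits were. The mean log2 CPM of 15 muscle markers was 6.90, 7.54 and 6.71 in control and 8.02, 7.72 and 6.15 in SRF mice, and their summed level ranged from 2435 to 4049 and from 1543 to 5538 CPM. All 15 had positive log2 fold changes, with a median of 0.36, but 0 had an unadjusted p-value under 0.05 by edgeR's quasi-likelihood test and DESeq2 called 0. Nuclear subunit genes were also ranked by their longest annotated transcript, which need not be the one expressed. The 20 shortest by this measure, with a median of 608 nt, spread more between libraries than the 20 longest. Their medians ran from -0.47 in SRF mouse 3 to 0.28 in SRF mouse 1, against -0.16 to 0.13 for the 20 longest. The part of muscle or of transcript length in the shared movement was not tested.

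**Figure D3:**
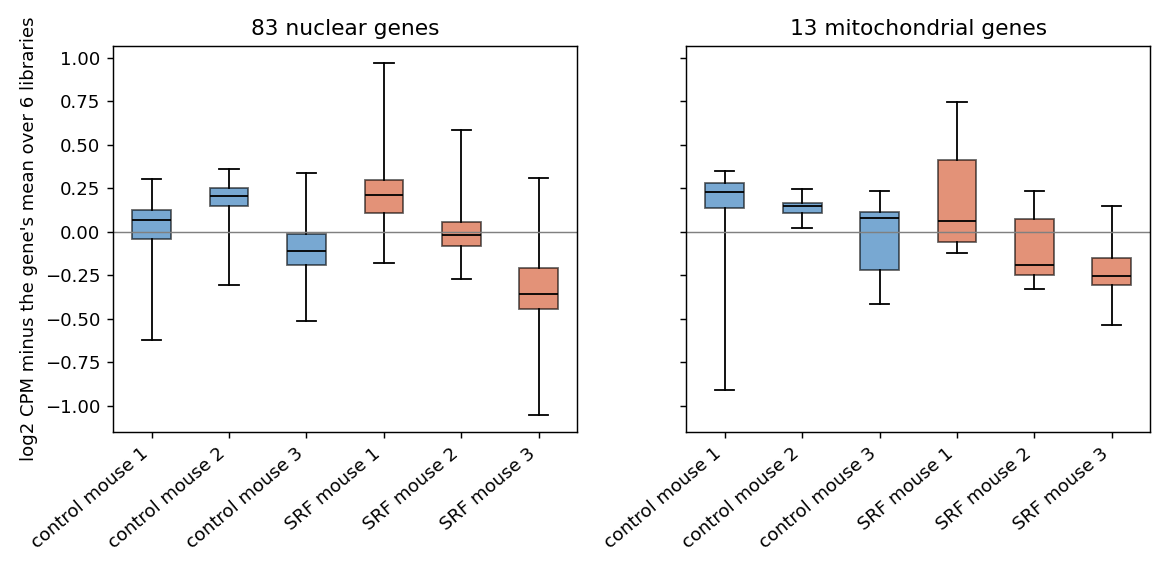
Log2 CPM of each gene minus that gene's mean over the 6 libraries (y axis), for the 83 nuclear genes (left) and the 13 mitochondrial genes (right) in each library (x axis), blue for control and orange for SRF. Boxes hold the middle part of the genes with the median as a line, and whiskers reach the lowest and highest gene. The nuclear medians are highest in SRF mouse 1 and control mouse 2 and lowest in SRF mouse 3.

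Complex I had 36 nuclear subunits, of which 33 were lower, with a median log2 fold change of -0.11. The gene with the lowest value of all 83, Ndufv2, encodes an iron-sulfur subunit of the NADH-oxidising module. Its level was 262, 272 and 257 CPM in control and 225, 197 and 219 CPM in SRF mice, without overlap. The log2 fold change was -0.30 ± 0.11 (SE), with an unadjusted p-value of 0.0243 and an adjusted one of 0.586 by edgeR's quasi-likelihood test (Benjamini-Hochberg). Its partners in electron entry were nearer 0, with -0.04 ± 0.10 for Ndufv1, which binds NADH and the flavin, and 0.03 ± 0.15 for Ndufs1, the large iron-sulfur subunit. Ndufa3, an accessory subunit, had the highest value of complex I at 0.09 ± 0.25. Without SRF mouse 3 the median of complex I was 0.00.

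All 4 subunits of complex II, which is encoded by nuclear genes alone and is also an enzyme of the tricarboxylic acid (TCA) cycle, had values below 0, with a median of -0.09. Sdha, the flavin subunit, had -0.08 ± 0.18 (SE), and Sdhb, the iron-sulfur subunit, had -0.11 ± 0.14. The membrane anchors Sdhc and Sdhd had -0.06 ± 0.15 and -0.18 ± 0.16. All 4 overlapped between the groups.

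Of 8 nuclear subunits of complex III, 7 were lower, with a median of -0.09. Uqcrb, a small subunit near the ubiquinone site, had the lowest value at -0.26 ± 0.14 (SE) and Uqcrq, another small subunit, the highest at 0.07 ± 0.23. Uqcrfs1, the Rieske iron-sulfur protein, had -0.20 ± 0.12 and the core protein Uqcrc1 -0.07 ± 0.12. None of the 8 had an unadjusted p-value under 0.05 by edgeR's quasi-likelihood test.

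Complex V had 17 nuclear subunits, of which 15 were lower, with a median of -0.09. Atp5f1, the b subunit of the peripheral stalk, was at 342, 324 and 322 CPM in control and 273, 256 and 281 CPM in SRF mice. Every SRF library was below every control library, with a log2 fold change of -0.29 ± 0.10 (SE), an unadjusted p-value of 0.0253 and an adjusted one of 0.595 by edgeR's quasi-likelihood test (Benjamini-Hochberg). Atp5f1 shares 731 bases with Wdr77 on the opposite strand. Atp5c1, the central rotating shaft, was the third gene without overlap, at 370, 375 and 340 against 336, 316 and 304 CPM, a log2 fold change of -0.18 ± 0.11. Its unadjusted p-value by edgeR's test was 0.125.

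The catalytic head subunits Atp5a1 and Atp5b had log2 fold changes of -0.08 ± 0.10 and -0.09 ± 0.11 (SE). The membrane ring is built from 1 protein encoded by 3 genes, and by FPKM Atp5g1 supplied 51.1% ± 2.77 of their summed level in control and 52.4% ± 1.81 in SRF mice (SD, n = 3). Atp5g2 supplied 11.6% ± 0.880 and 12.1% ± 0.304, and Atp5g3 37.4% ± 2.31 and 35.5% ± 1.80. The exact permutation p-values were 0.5, 0.4 and 0.3. By counts per kb of the longest annotated transcript, Atp5g1 instead made up 13.8% in control and 14.4% in SRF mice. Atp5g3 then made up 63.3% and 61.2%, so the order of the 3 genes depended on the scale. Atp5k, a small membrane subunit, had the highest value of complex V at 0.18 ± 0.28 (SE).

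**Figure D4:**
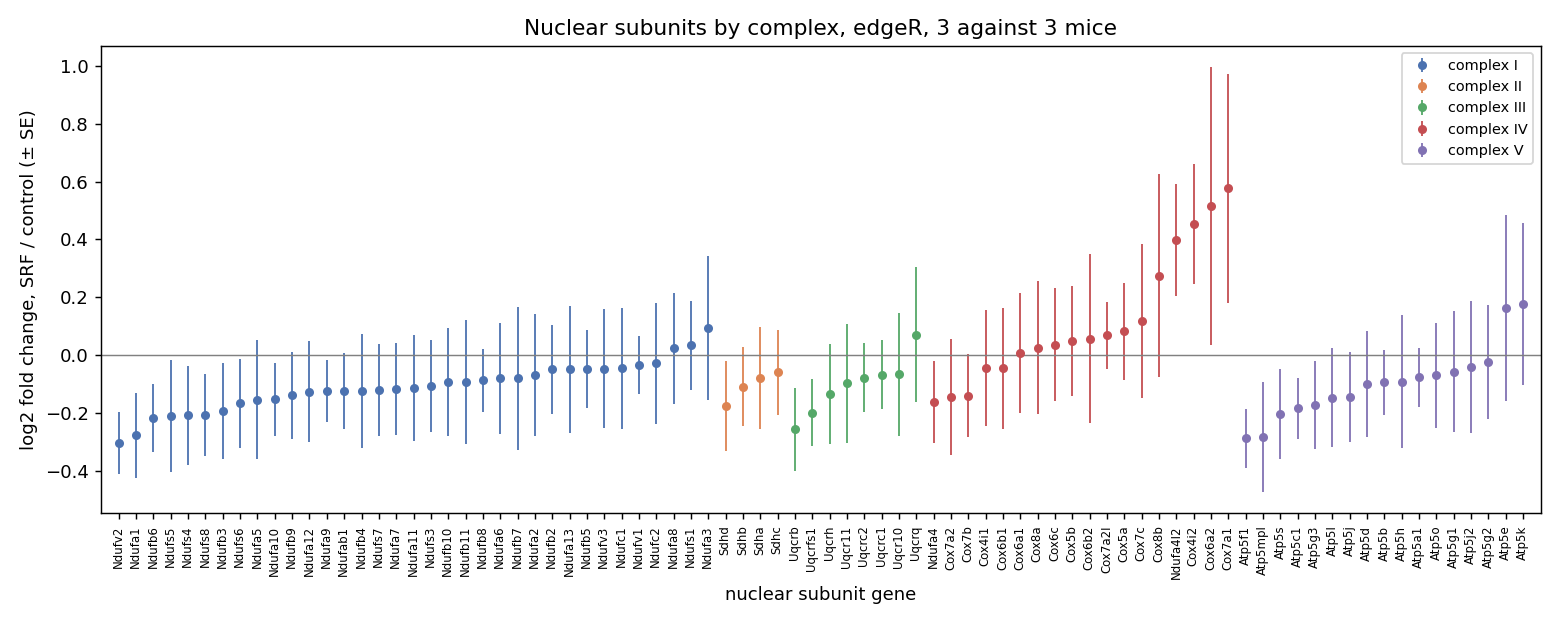
Fitted log2 fold change of SRF over control (y axis, points) with its SE (bars) for the nuclear subunits reported here, grouped by complex in colour and sorted within it (x axis). Most points of complexes I, II, III and V lie a little below 0, and the highest points are the complex IV isoforms Cox7a1, Cox6a2, Cox4i2 and Ndufa4l2, of which Cox7a1 and Cox6a2 have the widest bars of the plot.

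Complex IV stood apart in sign, with 13 of 18 nuclear subunits higher and a median log2 fold change of 0.05, though 0 had an unadjusted p-value under 0.05 by edgeR's quasi-likelihood test and DESeq2 called 0. The median turned to -0.13 without SRF mouse 1 and to -0.02 without control mouse 3. It was also below 0, at -0.005, with the photoreceptor level as a covariate. Without its 6 tissue isoforms, 7 of 12 were higher, with a median of 0.02. Among the ubiquitous subunits Cox4i1, the first nuclear subunit to join the core, had the highest FPKM of all nuclear genes at 816 ± 141 (SD, n = 6) and a log2 fold change of -0.05 ± 0.20 (SE). Cox5a, which binds it, had 0.08 ± 0.17. Cox4i1 shares 5986 bases with the listed gene Gm20388 on the same strand and 352 with Emc8 on the opposite strand.

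Several complex IV subunits exist as a ubiquitous form and one used in particular tissues. Cox4i2, known from lung and vessel walls and from cells at low oxygen, was at 18.7, 13.9 and 12.1 CPM in control and 23.6, 19.4 and 18.0 CPM in SRF mice. The log2 fold change was 0.45 ± 0.21 (SE), with an unadjusted p-value of 0.0646 by edgeR's quasi-likelihood test. By FPKM, Cox4i2 made up 3.02%, 1.95% and 2.29% of Cox4i1 and Cox4i2 together in control and 3.24%, 3.09% and 3.91% in SRF mice. Every SRF share was above every control share, with p = 0.1 in the exact permutation test. In CPM the groups of Cox4i2 overlapped, SRF mouse 3 lying below control mouse 1. Cox4i1 was lowest of all libraries in SRF mouse 3, at 454 CPM.

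Ndufa4l2, a relative of Ndufa4 induced at low oxygen and found in pericytes, was at 18.0, 24.3 and 21.9 CPM in control and 29.6, 33.1 and 22.0 CPM in SRF mice, a log2 fold change of 0.40 ± 0.19 (SE). Its share of the pair by FPKM was 3.55%, 4.33% and 4.63% in control and 5.54%, 7.08% and 5.45% in SRF mice, again without overlap (p = 0.1, exact permutation test). In CPM the groups of Ndufa4l2 overlapped, SRF mouse 3 lying between control libraries. Ndufa4 itself had the lowest value of complex IV at -0.16 ± 0.14, and its level was lowest in SRF mouse 3, at 224 CPM. Of 10 mural cell markers, which mark pericytes and smooth muscle, 7 were higher and 1, Pdgfrb, had an unadjusted p-value under 0.05, with summed levels from 1980 to 2639 CPM in control and from 2306 to 2513 CPM in SRF libraries. Their part in the isoform shares was not tested.

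The heart and skeletal muscle isoforms Cox6a2, Cox7a1 and Cox8b had wide errors. Cox7a1, with the highest fitted value of the 83 nuclear genes at 0.58 ± 0.40 (SE), was at 10.1, 18.5 and 11.8 CPM in control and 28.2, 21.9 and 10.2 CPM in SRF mice. SRF mouse 3 lay between the control libraries. Its share of Cox7a1 and Cox7a2 was 8.29%, 13.2% and 11.4% in control and 19.1%, 17.8% and 12.2% in SRF mice (p = 0.2, exact permutation test).

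Cox6a2 was at 19.1, 33.0 and 21.2 CPM in control and 52.1, 39.98 and 12.9 CPM in SRF mice, a log2 fold change of 0.52 ± 0.48 (SE), and its share of the Cox6a1 and Cox6a2 pair was 5.78% ± 1.08 and 7.59% ± 2.93 (SD, n = 3; p = 0.4, exact permutation test). Cox8b, at 93.8, 148 and 87.4 against 175, 151 and 71.8 CPM, was the most used of these forms, at 32.4% ± 2.99 of its pair with Cox8a in control and 35.9% ± 4.32 in SRF mice (p = 0.3, exact permutation test). Both were highest in SRF mouse 1 and lowest in SRF mouse 3, as the muscle markers were, and without SRF mouse 1 the fitted values were 0.11 for Cox6a2, 0.25 for Cox7a1 and 0.02 for Cox8b. Their ubiquitous partners Cox6a1, Cox7a2 and Cox8a had log2 fold changes of 0.01 ± 0.21, -0.14 ± 0.20 and 0.03 ± 0.23.

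Cox6b2, known as a testis form, made up 7.47% ± 0.367 of its pair with Cox6b1 in control and 7.89% ± 0.997 in SRF mice (SD, n = 3; p = 0.6, exact permutation test). Its log2 fold change was 0.06 ± 0.29 (SE) and that of Cox6b1 -0.05 ± 0.21. Adjusted over the 9 isoform shares tested, no exact permutation p-value was below 0.45.

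**Figure D5:**
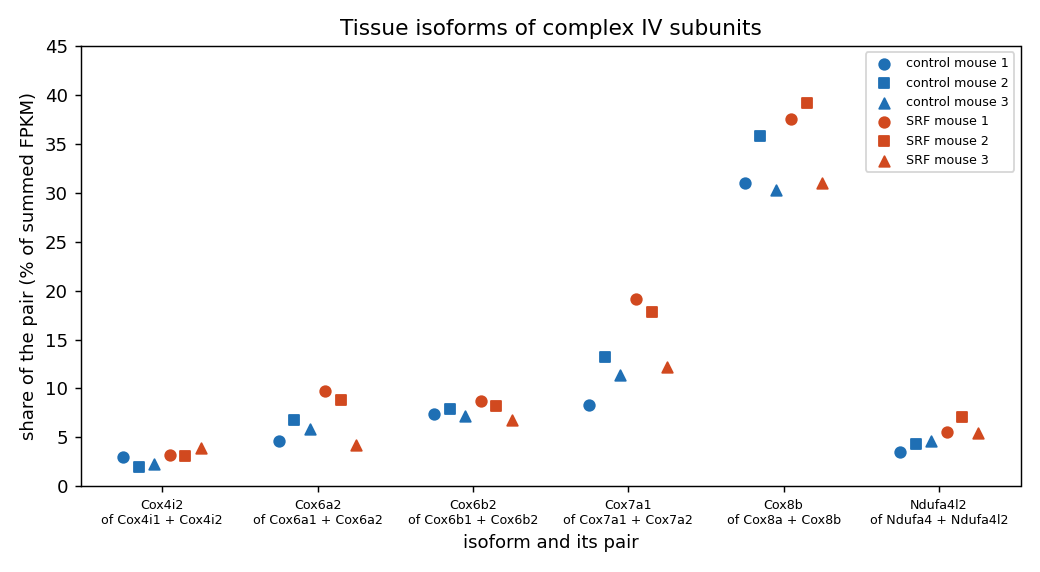
Share of each tissue isoform in the summed FPKM of its pair (y axis, percent) in each library, for the 6 complex IV pairs (x axis). Blue marks are control and orange marks SRF mice, with 1 shape for each mouse number. The SRF shares lie above all control shares for Cox4i2 and Ndufa4l2, and SRF mouse 3 lies among the control shares for Cox7a1 and Cox8b and below them for Cox6a2 and Cox6b2.

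Many nuclear subunit genes are known targets of the transcription factors NRF1, YY1 and GABP, which belongs to the ETS family. RefSeq promoters on GRCm38.p6, from 250 bases before to 50 after each start, were matched for 66 of the 83 genes, as 71 windows. Among those not matched were Atp5a1, Atp5f1, Atp5mpl, Atp5s, Cox4i1, Cox4i2, Cox6a2, Cox6c, Ndufa2, Ndufa4l2, Ndufb9, Ndufs1, Sdhc, Uqcrb, Uqcrc2 and Uqcrq. The NRF1 letters GCGCANGCG stood in 29.6% of the windows, against 6.25% of all 32851 promoter windows, searched on both strands. The YY1 letters AAGATGGCG stood in 9.86% against 1.4%, and the ETS letters CCGGAAGT in 7.04% against 3.89%. The windows compared were not matched for GC content, and its part in these shares was not tested.

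By complex, at least 1 of these motifs stood in 41.2% of 34 windows of complex I, 56.2% of 16 of complex V and 15.4% of 13 of complex IV. In complexes II and III, with only 3 and 5 windows, it was 66.7% and 60.0%. The share over all windows was 10.6%. Of the 6 tissue isoforms, Cox6b2, Cox7a1 and Cox8b were matched and had none. Most other complex IV genes had none either. Only exact matches to these letters within the window were counted, so a gene without a match may hold a site spelled differently. Only Cox6a1 (NRF1) and Cox8a (ETS) held a match, and Cox5a, Cox5b, Cox6b1, Cox7a2, Cox7a2l, Cox7b, Cox7c and Ndufa4 did not. The 250 bases before the start are shown for Cox6a1, the complex IV gene with the NRF1 match, for the nuclear gene with the lowest fitted value and for the muscle isoforms Cox7a1 and Cox8b, with capitals for the letters of any of these motifs.
Cox6a1 promoter, chr5:115348959-115349208 (minus strand): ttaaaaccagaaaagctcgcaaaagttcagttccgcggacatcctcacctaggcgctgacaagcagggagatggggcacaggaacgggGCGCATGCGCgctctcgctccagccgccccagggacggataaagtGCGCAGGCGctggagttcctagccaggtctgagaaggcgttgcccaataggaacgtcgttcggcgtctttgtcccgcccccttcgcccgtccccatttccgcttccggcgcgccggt
Ndufv2 promoter, chr17:66101560-66101809 (minus strand): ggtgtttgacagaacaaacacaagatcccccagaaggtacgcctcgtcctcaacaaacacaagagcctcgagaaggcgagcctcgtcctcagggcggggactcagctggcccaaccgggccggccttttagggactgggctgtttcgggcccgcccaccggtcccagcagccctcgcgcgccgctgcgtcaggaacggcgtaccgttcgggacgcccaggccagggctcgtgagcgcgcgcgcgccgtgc
Cox7a1 promoter, chr7:30183921-30184170 (plus strand): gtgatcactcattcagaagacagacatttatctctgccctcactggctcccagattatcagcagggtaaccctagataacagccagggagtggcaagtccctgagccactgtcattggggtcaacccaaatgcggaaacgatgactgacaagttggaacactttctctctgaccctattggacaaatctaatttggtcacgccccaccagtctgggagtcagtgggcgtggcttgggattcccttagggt
Cox8b promoter, chr7:140900447-140900696 (minus strand): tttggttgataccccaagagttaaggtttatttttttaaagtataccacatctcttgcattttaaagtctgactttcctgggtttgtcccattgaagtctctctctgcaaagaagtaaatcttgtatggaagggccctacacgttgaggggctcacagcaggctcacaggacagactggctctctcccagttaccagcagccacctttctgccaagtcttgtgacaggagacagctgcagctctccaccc
The Cox6a1 promoter holds 2 stretches that match NRF1, the first a palindrome read on both strands (GCGCATGCGC), and the other 3 hold no match in this window.

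Genes that serve the same pathway were read from lists. For comparison, 49.7% of all tested genes had a log2 fold change below 0. Over all tested genes, 2.85% were lower and 4.16% higher at an unadjusted p-value under 0.05 by edgeR's quasi-likelihood test. DESeq2 called 1.14%. Of 8 further genes of the respiratory chain, 6 were lower and 2 had an unadjusted p-value under 0.05 by edgeR's quasi-likelihood test. Cycs, cytochrome c, the carrier from complex III to IV, was at 215, 227 and 215 CPM in control and 180, 166 and 163 CPM in SRF mice, a log2 fold change of -0.37 ± 0.10 (SE). Coq10b, which binds ubiquinone, was at 45.9, 54.4 and 57.7 against 30.8, 30.7 and 38.6 CPM, a log2 fold change of -0.66 ± 0.15. The groups did not overlap for either gene. DESeq2 called Coq10b with an adjusted p-value of 0.0344 and gave Cycs 0.0466 at a fold under the threshold, and edgeR's quasi-likelihood test (Benjamini-Hochberg) gave 0.332 and 0.422.

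Of 51 assembly factors of the 5 complexes, 37 were lower and 14 higher, with a median log2 fold change of -0.08. By edgeR's quasi-likelihood test 0 had an unadjusted p-value under 0.05, and DESeq2 called 0. The groups did not overlap for 4 lower factors and 1 higher factor, beside 6.43% and 6.71% of all tested genes. Complex I factors numbered 17 with 12 lower, complex IV factors 20 with 16 lower. The smallest p-value was that of Ndufaf3, a complex I factor, with a log2 fold change of -0.32 ± 0.14 (SE) and groups that did not overlap.

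Of 14 TCA cycle genes 11 were lower, with a median of -0.09, and 1 had an unadjusted p-value under 0.05 by edgeR's quasi-likelihood test. This was Idh3a, the catalytic subunit of NAD-dependent isocitrate dehydrogenase, at 217, 231 and 206 CPM in control and 187, 177 and 176 CPM in SRF mice, a log2 fold change of -0.28 ± 0.10 (SE). Citrate synthase (Cs) had -0.22 ± 0.10. DESeq2 called 0 of the 14.

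Among 19 regulators of mitochondrial genes 12 were higher, with a median of 0.04. By edgeR's quasi-likelihood test 1 was higher and 0 lower at an unadjusted p-value under 0.05, beside 4.16% and 2.85% of all tested genes. Groups without overlap were found for 2 higher genes and 1 lower gene, beside 6.71% and 6.43% of all tested genes. Esrra, a nuclear receptor that drives respiratory genes, was at 3.72, 7.32 and 5.21 CPM in control and 11.8, 8.69 and 8.35 CPM in SRF mice. The groups did not overlap, with a log2 fold change of 0.82 ± 0.31 (SE), an unadjusted p-value of 0.0313 by edgeR's quasi-likelihood test and a DESeq2 adjusted p-value of 0.474. Its coactivator Ppargc1a had a log2 fold change of -0.25 ± 0.11, also without overlap. Tfam, which packages mitochondrial DNA, had 0.04 ± 0.14, and Polrmt, the mitochondrial RNA polymerase, 0.21 ± 0.13. These last 2 genes were chosen after their values were seen.

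Per length, the nuclear subunits had median levels of 200 FPKM for complex I, 168 for complex II, 335 for complex III, 227 for complex IV and 296 for complex V, over genes and all 6 libraries. The lowest were Cox4i2 at 24.2 ± 5.99 FPKM and Atp5s at 25.7 ± 2.68 (SD, n = 6), and their order differed between libraries. The highest in each complex were Ndufa2, Sdhb, Uqcr11, Cox4i1 and Atp5b, at 383 ± 69.4, 313 ± 31.9, 602 ± 110, 816 ± 141 and 606 ± 38.3 FPKM. The mitochondrial genes ranged from mt-Nd3 at 136 ± 31.8 FPKM to mt-Cytb at 8064 ± 1100, which was above the next gene, mt-Atp6 at 7625 ± 925, in each of the 6 libraries.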

How the data were processed

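RNA-seq of RPE-choroid from 3 control and 3 SRF mice was analysed, with groups and mouse numbers taken from the sample labels. The authors filtered reads with FASTP and counted those mapped to each gene with StringTie. The deposited counts are whole numbers that were not normalized. The deposited FPKM values were scaled by the authors by transcript length and mapped reads. The aligner, genome build, annotation and strandedness are not given in the sources used here. Of the identifiers, 15659 of 15663 were found in GENCODE M21 (GRCm38), which gave symbols, positions, the length of the longest transcript and overlaps. The lowest count listed is 1.

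Genes above 50 counts in 2 or more samples, the study's filter, were tested with edgeR 4.0.16 in R 4.3.3 (TMM, estimateDisp, glmQLFit in the installed default form, glmQLFTest, group as the only term) with Benjamini-Hochberg adjustment over 13454 genes. Thresholds were those of the study. Also run were DESeq2 1.42.0, limma 3.58.1 (voom, and log2 FPKM with 0.1 or 1 added), different scalings and filters, length and GC corrections, a photoreceptor covariate, a replicate block and mice left out. Single values were compared by exact permutation tests, two-sided. Errors are SDs over mice or SEs of the fit, and cover only the spread between these mice. The subunits, the other lists and the tests were chosen with earlier results of these data known. Named were all mitochondrial subunits, isoform pairs, core subunits, the extremes of each complex, genes with small p-values and those called by either tool. A result that concerns 1 subunit is not reported here, though that gene is in the counts. Reads of near-identical copies, among them processed pseudogenes, could be split by the counting. The same holds for the 21 nuclear subunits that overlap a listed gene on the opposite strand. It also holds for the 2 that do so on the same strand, Cox4i1 and Ndufa13. A floor of 3 counts was worth 0.125 to 0.223 CPM, far below any subunit.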

Additional observations from a re-analysis of the deposited data

How the results depend on the processing

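Under 22 alternatives, 0 nuclear and 0 mitochondrial subunits were called. Of all tested genes, DESeq2 called 153 and the fit without control mouse 1 and SRF mouse 3 called 154. Each other alternative called between 0 and 5 of all genes, so these could hardly have called a subunit. The median of the mitochondrial subunits stayed below 0, between -0.38 and -0.14, the latter with the GC correction, and those of complexes II and III also kept their sign. The nuclear median lay between -0.22 and 0.04 and was above 0 without SRF mouse 3 and without it and control mouse 1. Complex I (0.004 without SRF mouse 3) and complex V (0.01 without both) changed sign in 1 alternative each and complex IV in 3. The mitochondrial genes with an unadjusted p-value under 0.05 numbered 7 in the main setting, 2 with limma on log2(FPKM + 0.1) or log2(FPKM + 1), 3 with the GC correction and from 4 to 7 leaving out 1 mouse, 4 without SRF mouse 2. The nuclear genes numbered 2 in the main setting, 6 with the length correction, 1 with the GC correction and 9 without control mouse 1 and SRF mouse 3, where 17.49% of all genes had such a p-value. Leaving out 1 mouse they numbered between 0 and 5, with 0 without control mouse 2 or SRF mouse 2, 3 without control mouse 1, 4 without SRF mouse 1 and 5 without SRF mouse 3. The share of all tested genes with such a p-value also moved, from 7.009% in the main setting to between 3.315% and 12.75% leaving out 1 mouse. The cause was not tested.

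In the fit with a replicate block for mouse number the nuclear genes numbered 4. Same-numbered mice are different animals, and the correlations of their deviations, -0.479, 0.486 and -0.3, give no pairing.

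The share of Ndufa4l2 differed by 1.86 percentage points from FPKM and by 3.49 from counts per kb, and Atp5g2 by 0.577 and 1.57. The median SE of 0.18 for nuclear subunits limits what 3 mice a group can show.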

Other observations

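Markers of cell types not described above were also read. Of 11 inner retina markers, 7 were higher and 4 lower in SRF, with summed levels from 534 to 1138 CPM in control and from 442 to 1265 CPM in SRF libraries, highest in control mouse 1 and SRF mouse 3. Of 26 photoreceptor markers, 9 were higher and 17 lower. Of 9 endothelial markers, 6 were higher and 3 lower, with summed levels from 1612 to 1915 and from 1516 to 1962 CPM. By edgeR's quasi-likelihood test 0 of the genes on these lists had an unadjusted p-value under 0.05, and DESeq2 called 0. Of 3 adipocyte markers tested, 3 were higher and 1, Cfd, had an unadjusted p-value under 0.05, at 10.7 ± 2.23 CPM in control and 22.1 ± 8.31 CPM in SRF mice (SD, n = 3), while the brown fat marker Ucp1 was not among the genes tested.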
